A study of Rattus norvegicus with 24 samples.

Results

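Hearts burn mostly fatty acids, and 66 genes of the uptake, activation, and mitochondrial oxidation of fatty acids were followed here across 6 exposure groups of rats. The genes were chosen by symbol: all symbols that begin with Acad, Acsl, Acaa, Acot, Cpt1, Cpt2, Crat, Hadh, Ech, Eci, Decr, Etf, Slc27a, or Fabp, with Cd36, Slc25a20, Mlycd, Acat1, Lpl, Lipe, Pnpla2, Dgat1, and Dgat2 added. For each gene the brightest probe set (a set of short probes against 1 transcript) that carries 1 gene symbol was used, and the 66 genes are part of 10411 named genes on the array. The rule reads symbols only, and the probe set of a gene was picked by its signal. By role, 15 genes encode uptake or binding proteins, 5 act in lipolysis and storage, 5 activate fatty acids, 7 belong to the carnitine shuttle and its control, 6 are acyl-CoA dehydrogenases, 7 carry out the later steps of each oxidation cycle, 5 prepare unsaturated chains, 3 pass electrons on, and 6 are thioesterases. Acadsb, of branched-chain amino acid breakdown, and 6 genes that were given none of these roles (Etf1, Etfbkmt, Etfrf1, Echdc1, Echdc2, and Echdc3) were also taken in by the symbols. Of the 66 genes, 50 lay above the median of all probe sets over the 24 arrays and 16 at or under it (Acsl3, Acsl4, Acadsb, Cpt1c, Acot1, Acot4, Acot8, Acot12, Fabp1, Fabp2, Fabp6, Fabp7, Fabp9, Fabp12, Slc27a3, and Slc27a5). All 66 were tested, without a filter on low signals.

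A fatty acid enters the heart muscle cell with the help of the membrane protein CD36, is bound by a fatty acid binding protein, and is activated to acyl-CoA on the outer mitochondrial membrane. Carnitine palmitoyltransferases on both mitochondrial membranes, with a carrier between them, bring the acyl group into the matrix, and malonyl-CoA, which is made by acetyl-CoA carboxylase and removed by malonyl-CoA decarboxylase, restrains entry. In the matrix each cycle oxidizes, hydrates, oxidizes again, and cleaves the chain, and the electrons of the acyl-CoA dehydrogenases pass through the electron transfer flavoprotein to the respiratory chain.

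Left ventricle with septum gave the RNA, and each rat its own Affymetrix Rat 230A array, for 4 male Wistar Kyoto rats per group, 12 to 14 weeks old when purchased. All rats were instilled into the trachea once a week with 1 mL/kg of fluid. The controls received saline. The MSH group received ash from Mount St. Helens, which holds no water-soluble zinc. The PM-HD and PM-LD groups received the whole suspension of an oil combustion particle, with 14.5 and 7.25 μg of zinc and 3.0 and 1.5 μg of nickel per mg by the labels. By the methods, both received the same particle sample, and PM-LD was given a lower dose of it than PM-HD. The PM-L group received the filtered leachable fraction of the particle, and the zinc sulfate group a solution of the salt (14.5 μg/mL by the group label). The protocol and the methods give other zinc concentrations, so that the dose of the arrayed rats is uncertain. By the methods, rats with 8 weekly instillations received each component at a higher concentration than rats instilled for longer. The arrayed saline, MSH, PM-HD, and zinc sulfate rats had 8 weekly instillations, and how many the PM-L and PM-LD rats had is not stated in the labels or methods. Zinc sulfate, PM-L, PM-LD, and PM-HD are called the soluble-zinc groups (16 rats), and saline and MSH the zinc-free groups (8 rats). The array holds whole tissue, so that fewer cells of a type and less RNA per cell cannot be told apart.

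The arrays differed in a ratio that touches most results. The 3′ control probe set of Gapdh over its 5′ one, which can rise when transcripts are shortened, ran from 1.11 to 5.62, although by the methods all RNA had passed a check of its ribosomal bands. The 9 arrays above 3 were zinc sulfate 3, PM-L 3 and 4, PM-LD 3, PM-HD 3 and 4, MSH 1 and 4, and saline 4. All 9 cardiomyocyte markers were bright, with Myh6 at 32446 to 37508, whereas the atrial Myl7 ran from 95.4 to 12424. Myl7 was highest in PM-LD 2 and PM-L 2 (12424 each), saline 1 (8171), PM-L 4 (5880.2), MSH 1 (5466), and zinc sulfate 2 (4656). The mean of the 4 atrial markers was a covariate in an alternative fit. The part of atrial transcripts in the comparisons of groups was not tested beyond it. The median deposited signal of an array was 206 to 278, 4.70% to 10.6% of its signals lay under 16, and arrays correlated with each other by 0.895 to 0.968 over all probe sets.

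Few of the 66 genes differed in the comparisons made, which were each group against saline, zinc sulfate against MSH, and the soluble-zinc against the zinc-free groups. A gene was called when unadjusted p from limma was under 0.05 and its signal was more than 25% higher or lower, in the fit over all arrays without further terms unless stated. Against saline, 1 gene was higher and 1 lower with MSH, 1 higher and 1 lower with PM-HD, 2 higher with PM-LD, 1 higher with PM-L, and 1 higher and 1 lower with zinc sulfate. These are 3.03%, 3.03%, 3.03%, 1.52%, and 3.03% of the 66, where 3.18%, 3.22%, 4.11%, 4.25%, and 3.94% of all 15866 probe sets were called, so that no exposure called more of these genes than of the array as a whole. Against MSH, zinc sulfate had 6 higher and 1 lower (10.6%, with 5.89% of all probe sets). These groups also differed in the median Gapdh ratio, 1.5 with zinc sulfate and 2.76 with MSH, and all 6 fibroblast and all 5 endothelial markers had a log2 fold change below 0 (medians −0.43 and −0.21), none of which passed. Their part in the result was not tested. The soluble-zinc groups against the zinc-free groups had 2 higher (3.03%, with 3.52%). A test of any difference among the 6 groups had p under 0.05 for 1 gene, Mlycd (5.01% of all probe sets). The lowest adjusted p of any of the 66 in any of these comparisons was 0.654. The 5 comparisons with saline share the same 4 saline rats.

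The median log2 fold change of the 66 genes was −0.10 with MSH, −0.10 with PM-HD, 0.04 with PM-LD, −0.06 with PM-L, and 0.04 with zinc sulfate against saline, while the median of all probe sets stayed within 0.01 of 0. It was 0.04 for zinc sulfate against MSH and 0.02 for the soluble-zinc against the zinc-free groups. Groups of rats did not overlap for 2 genes with MSH (3.13% of all probe sets), 0 with PM-HD (2.1%), 0 with PM-LD (2.29%), 1 with PM-L (2.37%), 0 with zinc sulfate (2.72%), and 5 for zinc sulfate against MSH (5.16%). The last 5 were Acot7, Cd36, Cpt1a, Dgat1, and Fabp7.

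**Figure D1:**
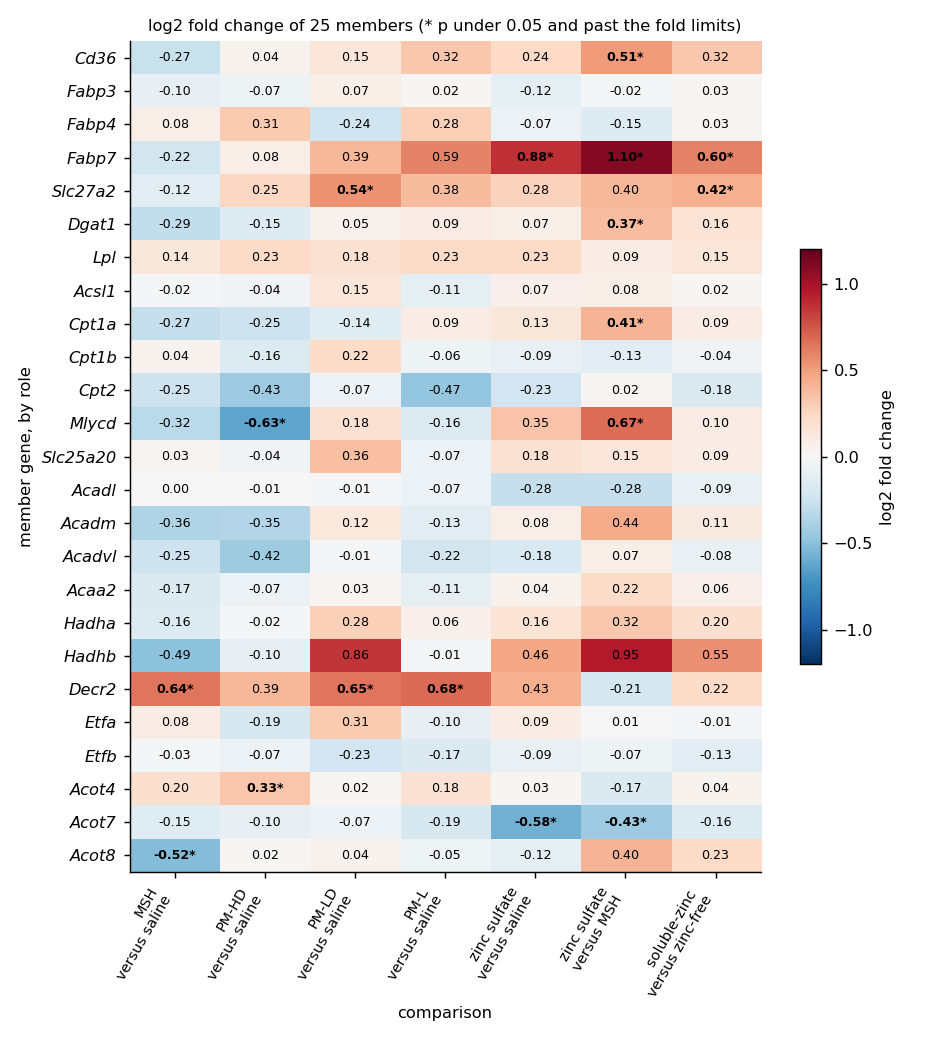
Log2 fold change of 25 members (rows, by role) in 7 comparisons (columns), with color for direction and size and an asterisk for p under 0.05 with a change of over 25%. Most cells are near 0, and the column of zinc sulfate against MSH holds the most asterisks.

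Of the uptake proteins, Cd36 was higher with zinc sulfate than with MSH. CD36 is the main membrane carrier of long-chain fatty acids in heart muscle. Its normalised signal (the quantile-normalised log2 value put back on the linear scale, less the pseudocount of 16, as for all single rats in the text) was 4894, 3922, 4907, and 5725 in saline, 3914, 3589.6, 3969, and 4583 in MSH, 4741, 4619, 4131, and 6631 in PM-HD, 4572, 5532, 6912, and 4677 in PM-LD, 4152, 5824, 7656, and 7104 in PM-L, and 5017, 4829.8, 9007, and 4798.5 in zinc sulfate rats. Every zinc sulfate rat lay above every MSH rat, and the highest signal of all was that of zinc sulfate 3. The log2 fold change of zinc sulfate against MSH was 0.51 (SE 0.22), with adjusted p = 0.75 in limma and exact permutation p = 0.0286, two-sided, the smallest that 4 against 4 rats can give. Without zinc sulfate 3 the change was 0.29 and did not pass, and the call was also lost without MSH 1, 2, or 3 and within the 15 arrays with a Gapdh ratio up to 3. Over all soluble-zinc rats Cd36 was higher by 0.32 (SE 0.14, unadjusted p = 0.0283, adjusted p = 0.766 in limma), just short of the limit of 25%, and 6 of the 16 rats lay above all 8 zinc-free rats. These were PM-HD 4, PM-LD 3, PM-L 2, 3, and 4, and zinc sulfate 3, and all but PM-L 2 had a Gapdh ratio above 3.

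Fabp3, which encodes the fatty acid binding protein of heart muscle, did not pass in any comparison. Its signal was 28059, 28957, 26444, and 23704 in saline, 24253, 26020.4, 23704, and 26020.4 in MSH, 29981, 31165, 26020.4, and 17462 in PM-HD, 28957, 29981, 21794, and 32973 in PM-LD, 31165, 32446, 20945, and 25349.7 in PM-L, and 29357, 28957, 15144, and 28529 in zinc sulfate rats. The lowest soluble-zinc rats were zinc sulfate 3, PM-L 3, PM-LD 3, and PM-HD 4 in their groups, and all 4 arrays had a Gapdh ratio above 3. Fabp4, of adipocytes and capillary endothelium, gave the mirror image, with 6776, 8456, 10305, and 15262 in saline, 10411, 8734, 10356, and 11804 in MSH, 12386, 7436, 12871, and 18144 in PM-HD, 9546, 5713, 17126, and 4969 in PM-LD, 10077, 6006, 20192, and 16251 in PM-L, and 7378, 7324, 23377, and 5793 in zinc sulfate rats. Zinc sulfate 3, PM-L 3, PM-HD 4, PM-LD 3, PM-L 4, and saline 4, all with a ratio above 3, had the 6 highest signals of Fabp4, and no comparison of groups passed. Fabp5, a binding protein of endothelium and skin, ran from 1136 to 4915 over the 24 rats and did not pass in any comparison.

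Slc27a2, which encodes a very long-chain acyl-CoA synthetase and transporter, was higher in the soluble-zinc groups. Its signal was 230.4, 313, 256, and 110.1 in saline, 153, 259, 213, and 169 in MSH, 251, 304, 285, and 200.1 in PM-HD, 284, 247, 497, and 287 in PM-LD, 231, 274, 358, and 280.5 in PM-L, and 229, 260.1, 249, and 316 in zinc sulfate rats. The lowest rat was saline 4 and the highest PM-LD 3, and the groups overlapped. The soluble-zinc groups were higher by 0.42 (SE 0.16, unadjusted p = 0.0132, adjusted p = 0.717 in limma), but without saline 4 the change was 0.28 and did not pass. Against saline, PM-LD was higher by 0.54 (SE 0.26), a call lost when any of 15 of the 24 arrays was left out. Within the 15 arrays with a Gapdh ratio up to 3 the soluble-zinc groups were higher by only 0.09 (SE 0.11, unadjusted p = 0.441), and within the 9 arrays above 3 by 1.13.

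Fabp7, the binding protein of brain, was called higher with zinc sulfate, at signals close to the floor of the array. It had 4.2, 9.1, 39, and 3.9 in saline, 11.9, 3.9, 9.4, and 5.1 in MSH, 17.5, 16, 4.8, and 15.3 in PM-HD, 5, 35.5, 5.9, and 53.9 in PM-LD, 34.5, 39.8, 9.6, and 23.8 in PM-L, and 18.9, 54.7, 22.6, and 50.7 in zinc sulfate rats. All zinc sulfate rats lay above all MSH rats, and saline 3 lay among the zinc sulfate rats. The log2 fold change was 0.88 (SE 0.38) against saline, 1.10 against MSH, and 0.60 (SE 0.23) for the soluble-zinc groups. The call against saline was lost without saline 1, 2, or 4 or zinc sulfate 2 or 4 and within the 15 arrays with a Gapdh ratio up to 3, and that of the soluble-zinc groups with a pseudocount of 64. The remaining binding and transport genes are Fabp1, Fabp2, Fabp6, Fabp9, Fabp12, Slc27a3, and Slc27a5, whose medians lay between 7.70 and 108, and Slc27a1 and Slc27a4, whose signals were 788 to 1628 and 558 to 1039.8. None of these 9 was called in a comparison of the 6 groups over all arrays.

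In lipolysis and storage, both enzymes that complete triglyceride synthesis were higher with zinc sulfate than with MSH. Dgat1 had 915, 1006, 902, and 1327 in saline, 856, 801, 831, and 851 in MSH, 889, 1210.5, 877, and 763 in PM-HD, 1037, 1041, 982, and 1195 in PM-LD, 1059, 1115, 1172, and 1039.8 in PM-L, and 1095, 998, 1089, and 1143 in zinc sulfate rats. The 4 MSH rats were the tightest group and lay below all saline and all zinc sulfate rats, while PM-HD 4 was lower still. Zinc sulfate exceeded MSH by 0.37 (SE 0.14, adjusted p = 0.693 in limma, exact permutation p = 0.0286), and the difference of MSH from saline, −0.29, had unadjusted p = 0.0536 in limma and did not pass. Dgat2 had 381, 469, 414, and 384 in saline, 301, 361, 425, and 264 in MSH, 495, 535, 392, and 346 in PM-HD, 561, 484, 268, and 489 in PM-LD, 504, 518, 600.5, and 253 in PM-L, and 621, 598, 424, and 440.2 in zinc sulfate rats. Zinc sulfate was higher than MSH by 0.60 (SE 0.25), and MSH 3 overlapped the zinc sulfate rats. The call was lost without MSH 1, MSH 4, zinc sulfate 1, or zinc sulfate 2. In 10 of the 16 soluble-zinc rats Dgat2 exceeded all 8 zinc-free rats, with a log2 fold change of 0.29 (SE 0.15, unadjusted p = 0.0661) that did not pass.

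Lpl, which encodes the lipase that frees fatty acids from blood lipoproteins, did not pass in any comparison. It had 13466, 15900.4, 13298, and 10305 in saline, 13581, 14424, 16365, and 13466 in MSH, 15262, 15709, 13581, and 16855 in PM-HD, 14821, 14327, 14066, and 16365 in PM-LD, 17462, 17126, 14530.0, and 12723 in PM-L, and 14530.0, 17812, 12609, and 16855 in zinc sulfate rats. Saline 4 was the lowest rat, and the differences of the exposed groups from saline were 0.14 to 0.23 on the log2 scale (SE 0.15). Lipe and Pnpla2, the lipases of stored triglyceride, at 728 to 2324 and 1320.4 to 2321, were also not called, though Lipe was higher with zinc sulfate than with MSH by 0.65 (SE 0.17) with the Gapdh ratio as a covariate.

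In activation, Acsl1, the main long-chain acyl-CoA synthetase of heart, did not pass in any comparison. Its signal was 5611, 5438, 4462, and 2213 in saline, 3139, 4942, 4809, and 3876 in MSH, 4399.5, 6130.5, 4109, and 2419 in PM-HD, 5214, 5880.2, 2958, and 5046 in PM-LD, 4915, 5450.4, 2312, and 3596 in PM-L, and 5599, 6006, 1885, and 5701 in zinc sulfate rats. Zinc sulfate 3, PM-L 3, PM-LD 3, PM-HD 4, and saline 4 lay at 1885 to 2958 and were the lowest of their groups, each with a Gapdh ratio above 3. Acsl3, Acsl4, Acsl5, and Acsl6 had medians of 236, 239, 746, and 382 and were not called.

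The carnitine shuttle held the one gene with unadjusted p under 0.05 in the test over all groups, Mlycd, which encodes malonyl-CoA decarboxylase. Its signal was 1528, 1691, 1357, and 1932 in saline, 1519, 1279, 1339, and 1049 in MSH, 1038, 1821, 682, and 886 in PM-HD, 1925, 1642, 1532, and 2312 in PM-LD, 1360.4, 1824, 1604, and 1087 in PM-L, and 2036, 2321, 1449, and 2602 in zinc sulfate rats. The 3 lowest of the 24 rats were PM-HD 3, PM-HD 4, and PM-HD 1, and the 3 highest were zinc sulfate 4, zinc sulfate 2, and PM-LD 4. Mlycd fell by 0.63 (SE 0.25) with PM-HD against saline, from 1627 ± 245 to 1107 ± 498 (mean ± SD, n = 4 rats; adjusted p = 0.999 in limma, exact permutation p = 0.114). The call was lost without PM-HD 3, PM-HD 4, or saline 4, and the groups overlapped through PM-HD 2. It was also lost with median centering and with only the 2 groups compared in the fit. Within the 15 arrays with a Gapdh ratio up to 3 it was lost with and without the ratio as a covariate. With zinc sulfate the mean was 2102 ± 493, higher than with MSH by 0.67 (SE 0.25, adjusted p = 0.676 in limma), a call kept whichever single array was left out. That call was lost with the Gapdh ratio as a covariate within the 15 arrays. The test over all groups gave unadjusted p = 0.00931 and adjusted p = 0.881 in limma. Of the 4 zinc sulfate rats 3 also lay above all saline rats, but the difference of 0.35 from saline did not pass.

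Cpt1a and Cpt1b encode the liver and muscle forms of the transferase of the outer membrane. Cpt1a had 867, 869, 683, and 822 in saline, 686, 622, 796, and 574 in MSH, 759, 810.4, 547, and 614 in PM-HD, 609, 787, 924, and 639 in PM-LD, 795, 833, 1063, and 765 in PM-L, and 825, 983, 861, and 878 in zinc sulfate rats. Zinc sulfate was higher than MSH by 0.41 (SE 0.16, adjusted p = 0.709 in limma) without overlap, but the call was lost without MSH 2, MSH 4, or zinc sulfate 2 and within the 15 arrays with a ratio up to 3. Cpt1b had 6912, 7186, 6130.5, and 4171 in saline, 6097, 6530.3, 6952, and 5168 in MSH, 6056, 7378, 4389, and 4152 in PM-HD, 7252, 8266, 4983, and 7788 in PM-LD, 6818, 8456, 3458, and 5349.7 in PM-L, and 6818, 6056, 3642, and 6656 in zinc sulfate rats. Its lowest rats were zinc sulfate 3, PM-L 3, PM-LD 3, PM-HD 4, MSH 4, and saline 4 in their groups, and no comparison passed.

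Cpt2, the transferase of the inner membrane, varied more between rats of one group than between groups. Its signal was 2557, 2496, 1610.1, and 888 in saline, 1315, 1553, 1919, and 1174 in MSH, 1650.1, 2719, 1235, and 487 in PM-HD, 2307, 2312, 494, and 2844 in PM-LD, 2333, 2263, 569.8, and 813 in PM-L, and 2643, 2884, 213, and 2859 in zinc sulfate rats. Within zinc sulfate it ran from 213 to 2884, and the SE of each comparison between single groups was 0.72. Slc25a20, the carrier between the 2 transferases, had 1476, 1637, 1482, and 929 in saline, 1386, 1379.5, 1481, and 1289 in MSH, 1503, 1963, 1003, and 993 in PM-HD, 1919, 1933, 1182, and 2077 in PM-LD, 1722, 1984, 653, and 1211 in PM-L, and 1883, 1892, 868, and 1790.3 in zinc sulfate rats. In 9 of the 16 soluble-zinc rats it exceeded all zinc-free rats, while the difference of the means was 0.09 (SE 0.19) and did not pass. Crat and Cpt1c, at 804 to 2267 and 30.1 to 261, were not called.

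The acyl-CoA dehydrogenases, which begin each cycle and differ in the chain length they accept, did not pass in any comparison of groups over all arrays. Acadvl (very long chains) had 4272, 4785, 4543, and 4619 in saline, 3911, 4362, 3596, and 3515 in MSH, 4006, 4590.2, 3402, and 2112 in PM-HD, 5248, 5034, 3217, and 4840.1 in PM-LD, 4731, 4462, 3773, and 2949 in PM-L, and 4677, 4399.5, 2513, and 5046 in zinc sulfate rats. Its PM-HD mean was 3528 ± 1061 against 4555 ± 214 in saline (mean ± SD, n = 4 rats), a log2 fold change of −0.42 (SE 0.24, unadjusted p = 0.0873). Acadl (long chains) had 15375, 16855, 14974, and 15481 in saline, 15068, 14614, 18489, and 14821 in MSH, 16746, 16746, 15262, and 13818 in PM-HD, 15842, 16746, 13047, and 16855 in PM-LD, 16604, 16365, 13764, and 13385 in PM-L, and 15569, 14327, 9101, and 13636 in zinc sulfate rats, with zinc sulfate 3 far below the rest. Acadm (medium chains) had 16365, 14742, 9546, and 5495 in saline, 6892, 9290.1, 10305, and 7011 in MSH, 11936, 16604, 6631, and 3596 in PM-HD, 12723, 18661, 4819, and 15569 in PM-LD, 13993, 18144, 5279, and 6580.5 in PM-L, and 14157, 16365, 4235, and 16019.5 in zinc sulfate rats. Within every soluble-zinc group Acadm differed by over 3-fold between rats, which exceeds every difference between group means. Acads, Acad9, and Acad10 had medians of 2953, 837, and 880.3 and were not called.

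The 7 genes of the later steps include Hadha and Hadhb, which encode the subunits of the mitochondrial trifunctional protein that completes the cycle for long chains. They lie head to head on chromosome 6 of the rat, with start sites at 31907801 and 31907500 and 301 bases between them, so that 200 bases of their promoter windows are the same DNA read from opposite strands. Because the genes share this DNA and their signals moved together, both windows are shown, from 250 bases before to 50 bases from the start site on (RefSeq, build GRCr8; chr6:31907551-31907850, plus strand, and chr6:31907451-31907750, minus strand). Capitals mark letters found on either strand, the core GGGCGG that Sp1 binds, the box CCAAT of many promoters, and AAGGTCA, a core of the estrogen-related receptors.
Hadha: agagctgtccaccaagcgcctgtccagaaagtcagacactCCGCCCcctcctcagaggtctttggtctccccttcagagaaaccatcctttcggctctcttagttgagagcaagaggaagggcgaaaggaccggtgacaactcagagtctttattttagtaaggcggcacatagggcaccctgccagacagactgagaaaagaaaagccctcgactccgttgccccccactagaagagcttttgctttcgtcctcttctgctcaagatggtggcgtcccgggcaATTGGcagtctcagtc
Hadhb: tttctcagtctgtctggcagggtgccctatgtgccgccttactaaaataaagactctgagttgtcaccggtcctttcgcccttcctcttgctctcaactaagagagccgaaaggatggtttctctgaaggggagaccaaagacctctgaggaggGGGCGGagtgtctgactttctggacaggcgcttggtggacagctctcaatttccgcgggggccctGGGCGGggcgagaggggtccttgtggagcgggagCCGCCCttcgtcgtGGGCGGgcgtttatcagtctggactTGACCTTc
The match CCGCCC of Hadha and the leftmost GGGCGG of Hadhb are the same place. Of the 66 genes, 51 had such a window, and 34 of them (66.7%) held GGGCGG on either strand, against 34.9% of 27457 windows of all genes. CCAAT occurred in 41.2% against 37.7%. The core AAGGTCA occurred in 3.92% against 4.37%. The E-box CACGTG of basic helix-loop-helix factors occurred in 1.96% against 6.65%. A pair of AGGTCA with any 1 base between them, the element of the peroxisome proliferator-activated receptors, occurred in 0 of 51 windows against 0.0583%, and can overlap AAGGTCA. The 27457 windows were not limited to genes on the array or to genes expressed in heart, so that these shares compare unlike sets of genes. A match is a description of these letters.

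Hadha had 3882, 3969, 3541, and 3178 in saline, 3391, 3451, 3349.8, and 2816 in MSH, 4611, 5293, 3139, and 2139.5 in PM-HD, 4543, 6308, 2271, and 5824 in PM-LD, 4819, 5701, 2588, and 2912 in PM-L, and 4131, 5647, 2098, and 5519 in zinc sulfate rats. The 10 soluble-zinc rats with a Gapdh ratio up to 3 lay at 4131 to 6308, above all 8 zinc-free rats (2816 to 3969), and the 6 with a ratio above 3 at 2098 to 3139. Over all arrays the soluble-zinc groups differed from the zinc-free groups by 0.20 (SE 0.21, unadjusted p = 0.35), which did not pass. Hadhb had 6115, 4084, 2974, and 1846 in saline, 2712, 2900.3, 2356, and 1878 in MSH, 3372, 9356, 2083, and 1572 in PM-HD, 4930.0, 9843, 2670.4, and 11586 in PM-LD, 3997, 9473, 1742, and 1994 in PM-L, and 4829.8, 6410.0, 1996, and 8028 in zinc sulfate rats. The 5 highest rats, at 8028 to 11586, were PM-LD 4, PM-LD 2, PM-L 2, PM-HD 2, and zinc sulfate 4, and the difference of the soluble-zinc groups was 0.55 (SE 0.36, unadjusted p = 0.145).

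Acaa2, the thiolase of the last step, had 9101, 9891, 7656, and 3969 in saline, 6559.7, 6154, 7924, and 5293 in MSH, 9084, 11284, 6604, and 3345 in PM-HD, 8654, 8517, 5034, and 7924 in PM-LD, 9215, 8734, 5064, and 5002 in PM-L, and 8206, 11524, 2735, and 11936 in zinc sulfate rats, and did not pass. Hadh, Echs1, Ech1, and Acat1, of the dehydrogenation, hydration, double-bond shift, and short-chain cleavage, ran from 1269.9 to 9007, 628 to 3253, 2969 to 9473, and 1963 to 7324, and none was called over all arrays. PM-HD had an Acat1 log2 fold change of −0.70 (unadjusted p = 0.053) against saline, which did not pass.

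**Figure D2:**
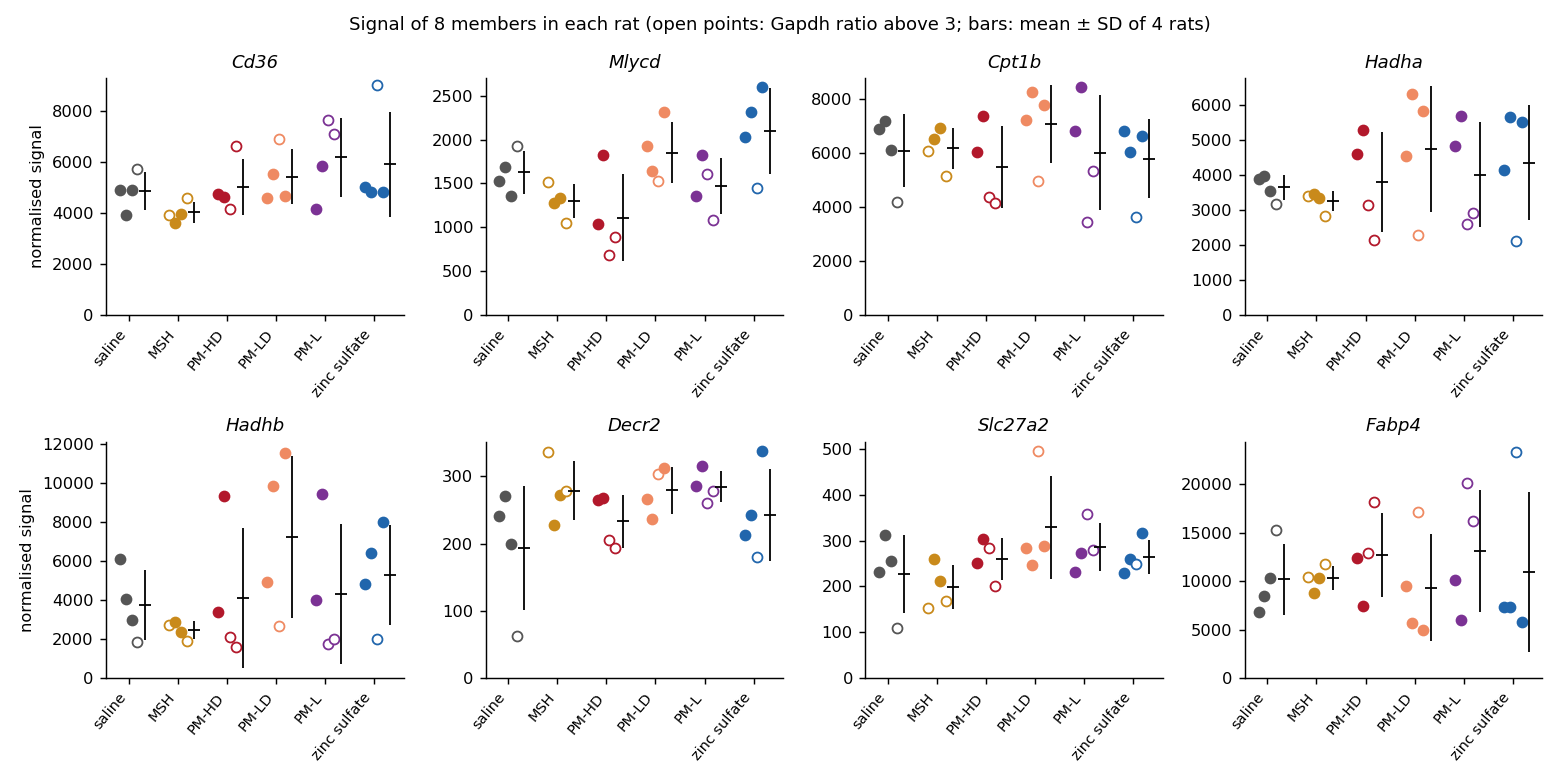
Normalised signal of 8 members in single rats (points, 4 per group, open where the Gapdh ratio is above 3) with group means. Hadha of the soluble-zinc rats splits into filled points above all zinc-free rats and open points below every zinc-free rat but MSH 4, and Decr2 of saline 4 lies alone at 62.5.

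Among the enzymes of unsaturated chains, Decr2, a dienoyl-CoA reductase of peroxisomes rather than mitochondria, was called higher with MSH, PM-LD, and PM-L. Its signal was 242, 270.4, 199, and 62.5 in saline, 336, 228, 273, and 279 in MSH, 265, 269, 206, and 193 in PM-HD, 267, 236, 304, and 312 in PM-LD, 286, 315, 260.0, and 278 in PM-L, and 213, 242, 179, and 338 in zinc sulfate rats. Saline 4 lay far below the other 23 rats. The log2 fold changes of 0.64, 0.65, and 0.68 (SE 0.28) were 0.22, 0.23, and 0.26 without saline 4, and all 3 calls were lost, as they were with only the 2 groups compared in the fit and within the 15 arrays with a ratio up to 3. Decr1, Eci1, Eci2, and Eci3, the mitochondrial reductase and the isomerases, had medians of 4095, 6414, 2051, and 478 and were not called.

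The electron transfer flavoprotein is a dimer of the products of Etfa and Etfb. Etfa had 3922, 4279.7, 3911, and 1823 in saline, 3201, 3976, 3980.3, and 2996 in MSH, 3451, 4969, 2499.5, and 1653 in PM-HD, 4399.5, 5580.4, 2258, and 5181 in PM-LD, 4125, 5805, 1556, and 2434 in PM-L, and 4656, 5064, 1306, and 4995 in zinc sulfate rats. Etfb had 9436, 10222, 9753, and 8654 in saline, 9101, 10411, 8849, and 9007 in MSH, 10305, 7596, 9988, and 8617 in PM-HD, 9215, 7656, 8486, and 7132 in PM-LD, 10608, 6450.4, 8895, and 8333 in PM-L, and 9753, 9702, 7788, and 8544 in zinc sulfate rats. Neither passed in a comparison of groups, but Etfa ran from 1306 to 5805 and Etfb only from 6450.4 to 10608 over the 24 rats. Etfdh, which encodes the oxidoreductase that receives their electrons, ran from 526 to 3265 and was not called over all arrays.

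Of the thioesterases, which release free fatty acids from acyl-CoA, Acot7 was lower with zinc sulfate. Acot7, a cytosolic form that is abundant in brain, had 1658, 976, 1226, and 1782 in saline, 1256, 1409, 1179, and 1126 in MSH, 1618, 1171, 1359.8, and 1039 in PM-HD, 1299.5, 1711, 1068, and 1212 in PM-LD, 1130.5, 1097, 1581, and 1047 in PM-L, and 801, 812, 952, and 1124 in zinc sulfate rats. The 3 lowest rats of all 24 were zinc sulfate 1, 2, and 3, and zinc sulfate 4 lay below all MSH rats but above saline 2. Acot7 fell by 0.58 (SE 0.20) against saline (adjusted p = 0.999 in limma, exact permutation p = 0.0571) and by 0.43 (SE 0.20) against MSH (adjusted p = 0.774, exact permutation p = 0.0286), and the first of these calls was kept whichever array was left out. The second was lost without any of 6 single arrays (MSH 1, 2, or 3 and zinc sulfate 1, 2, or 3) and with the replicate number as a block. It was also lost with median centering, with a pseudocount of 64, and with the mean of the atrial markers as a covariate. Both were lost within the 15 arrays with a ratio up to 3. With the mean of all probe sets of Acot7 in place of the brightest, the changes were −0.40 and −0.40 and did not pass.

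Acot8, a peroxisomal form, was lower with MSH. It had 248, 261, 241, and 218 in saline, 229, 165, 171, and 109 in MSH, 271, 274, 232, and 207 in PM-HD, 262, 257, 219.6, and 262 in PM-LD, 254, 334, 263, and 128 in PM-L, and 228, 181, 222, and 263 in zinc sulfate rats. MSH fell by 0.52 (SE 0.22, adjusted p = 1 in limma, exact permutation p = 0.0571), and the call was lost without MSH 4 or saline 2. Acot4 was called higher with PM-HD by 0.33 (SE 0.14), at signals of 3.7 to 19.9 in all rats, which is the floor of the array. Acot1 and Acot12 had medians of 32.4 and 12.9, Acot13 one of 3037, and none was called. Of the 6 genes given none of the roles, Etf1, a translation release factor, was lower with PM-L by 0.41 (unadjusted p = 0.0257 in limma) at a fold just short of the limit. The others, like Acadsb, had no p under 0.05 against saline.

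Across arrays, most of these genes fell as the Gapdh ratio rose. This relation was examined after the data had been seen, as the change per doubling of the ratio within groups, with limma over all probe sets. At adjusted p under 0.05, 34 of the 66 genes were lower with a higher ratio (51.5%, with 17.4% of all probe sets) and 7 higher (10.6%, with 18.1%). The median change was −0.23 for the 66 genes and 0.02 for all probe sets. All 7 genes of the later steps and all 6 acyl-CoA dehydrogenases were lower.

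The steepest falls on the log2 scale were those of Cpt2 (−1.21, SE 0.11), Etfdh (−1.14), Hadh (−1.04), Acsl6 (−0.98), and Hadhb (−0.98, SE 0.10). Acadm fell by 0.92, Etfa by 0.78, Acsl1 by 0.64, Hadha by 0.54, Cpt1b by 0.45, Fabp3 by 0.31, and Acadl by 0.18. Etfb, at 0.01 (SE 0.06), did not pass, in contrast to Etfa. The genes that rose were Fabp4 (0.75, SE 0.06), Acsl5 (0.64), Fabp5 (0.57), Lipe (0.48), Fabp12 (0.41), Cd36 (0.28, SE 0.06), and Slc27a4 (0.15). With median centering in place of quantile normalization 40 genes were lower (23% of all probe sets) and 4 higher (13.4%), Cd36 turned to −0.03, and Etfb passed at −0.25. With the signals as deposited 32 were lower (14.2%) and 8 higher (31.2%), against a median of all probe sets of 0.12, and Cd36, at 0.12, did not pass.

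Markers of some other cell types moved with the ratio. All 5 endothelial, all 6 fibroblast, and both erythroid markers were higher with it, while 5 of 9 cardiomyocyte markers were lower and 1 higher. Of the macrophage markers 1 of 5 was higher, of the atrial ones 1 of 4 and of the brown adipocyte ones 1 of 2 lower, and none of 4 of lung epithelium passed. Of the white adipocyte markers 2 of 5 were lower, Plin4 (−0.26 per doubling) and Car3 (−0.41). The level of a list on an array was taken as the median over its genes of the log2 deviation from each gene's mean over arrays. For the 5 endothelial markers it was 0.245 to 0.979 in the 9 arrays above 3 and −0.969 to 0.130 in the other 15. For the 7 genes of the later steps it was −1.063 to −0.196 against −0.077 to 0.768. For the 4 lung epithelium markers it was 1.899 in saline 1 and at most 0.247 in every other array. The part of RNA integrity, of the share of cell types, and of exposure in these differences was not tested. Over the 24 rats the white adipocyte markers Lep and Plin1 ran from 4.6 to 39.2 and 27.7 to 180.4, Cfd from 104.4 to 293.8, Car3 from 48.0 to 329.5, and Plin4 from 1098.5 to 2522.

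**Figure D3:**
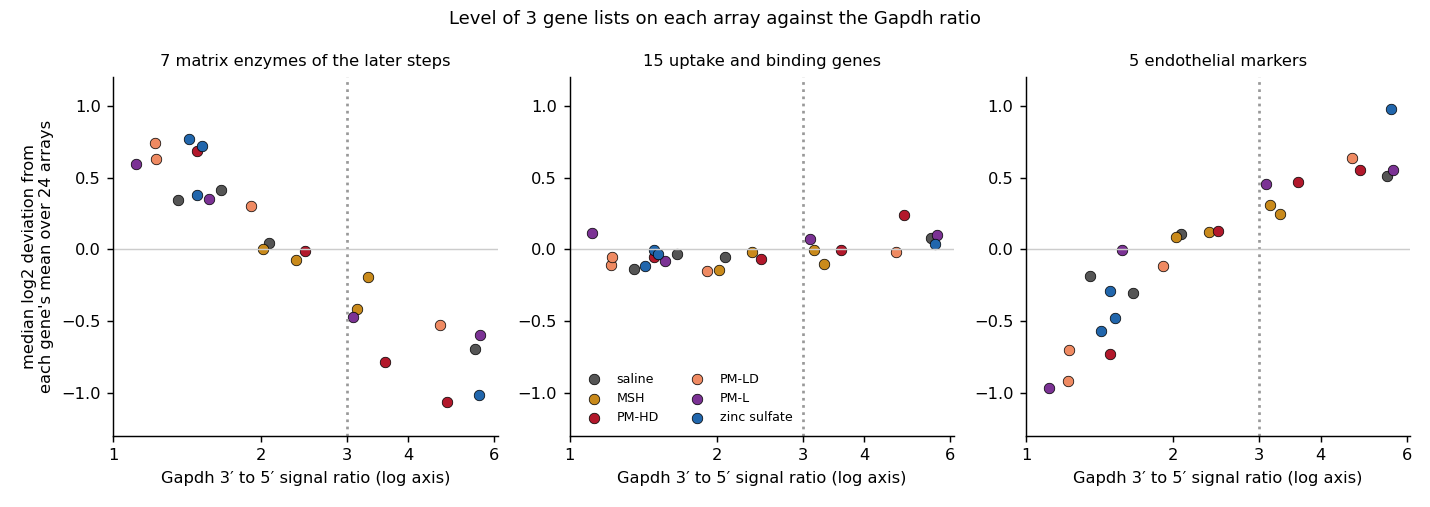
Level of 3 gene groups per array (log2, relative to the mean over arrays) against the Gapdh 3′ to 5′ ratio (log axis), 24 arrays colored by exposure group. The later-step enzymes fall from left to right, the endothelial markers rise, and the median of the uptake genes shows a narrower range. Of the 15 uptake genes, 5 rose and 3 fell with the ratio at adjusted p under 0.05 in limma.

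**Figure D4:**
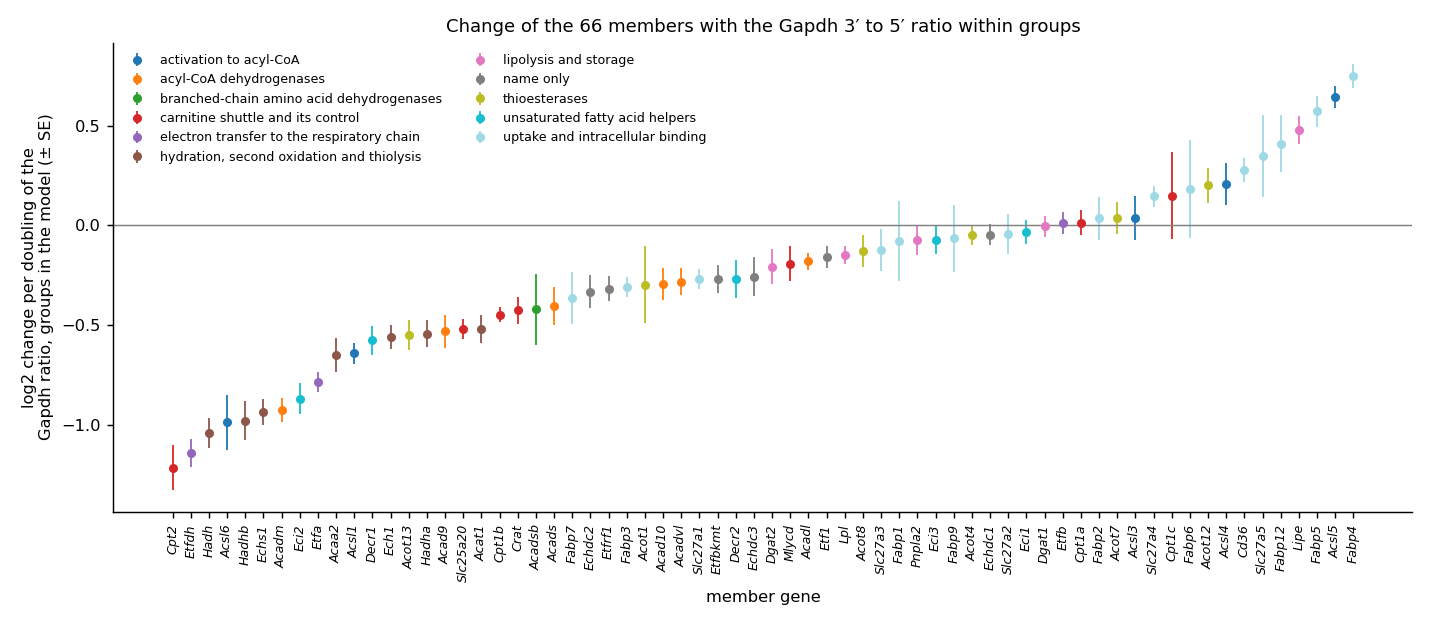
Change on the log2 scale per doubling of the Gapdh ratio within groups for the 66 genes (points with SE bars, colored by role), from the lowest to the highest. Cpt2 at −1.21 and Fabp4 at 0.75 are the ends of the range.

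Which genes passed with soluble zinc changed when the arrays were restricted by the ratio. Within the 15 arrays with a ratio up to 3, the soluble-zinc groups (10 rats) had 13 genes called higher and 0 lower against the zinc-free groups (5 rats), 19.7% of the 66, where 7.51% of all probe sets were called. The 13 included Hadha (0.53, SE 0.11, adjusted p = 0.301 in limma), Hadhb (0.97, SE 0.32), Hadh (0.64), Etfdh (0.53), Acadm (0.42), and Dgat2 (0.35), and the median of the 66 was 0.13. Zinc sulfate against MSH had 19 higher and 0 lower (28.8%, with 11.2%), with a median of 0.24, but rests on 3 and 2 rats. Even within these arrays the ratio differed, with a median of 2.02 (1.35 to 2.36) in the zinc-free and 1.48 (1.11 to 2.46) in the soluble-zinc rats.

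With the ratio as a covariate over all 24 arrays, 4 genes were higher with soluble zinc and 0 lower (6.06%, with 4.12%): Cd36 (0.35, SE 0.10, unadjusted p = 0.00145, adjusted p = 0.221 in limma), Hadhb (0.44, SE 0.15), Fabp7 (0.56), and Slc27a2 (0.42). With the covariate within the 15 arrays, 2 genes were higher (3.03%, with 4.44%), Hadha (0.39, SE 0.11, adjusted p = 0.648) and Dgat2 (0.37, SE 0.12). Within the 9 arrays above 3, 3 genes were higher and 2 lower (7.58%, with 8.35%), and Hadha had a difference of −0.37 that did not pass. For zinc sulfate against MSH, 9 members were higher and 2 lower with the covariate (16.7%, with 6.92% of all probe sets called), and 3 higher with the covariate within the 15 arrays (4.55%, with 5.79%), which were Etfdh, Acad10, and Dgat2. In the comparison of the soluble-zinc groups, Slc27a2 was called over all arrays, with the covariate, and within the 9 arrays, whereas Hadha and Dgat2 were called within the 15 arrays with and without the covariate.

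**Figure D5:**
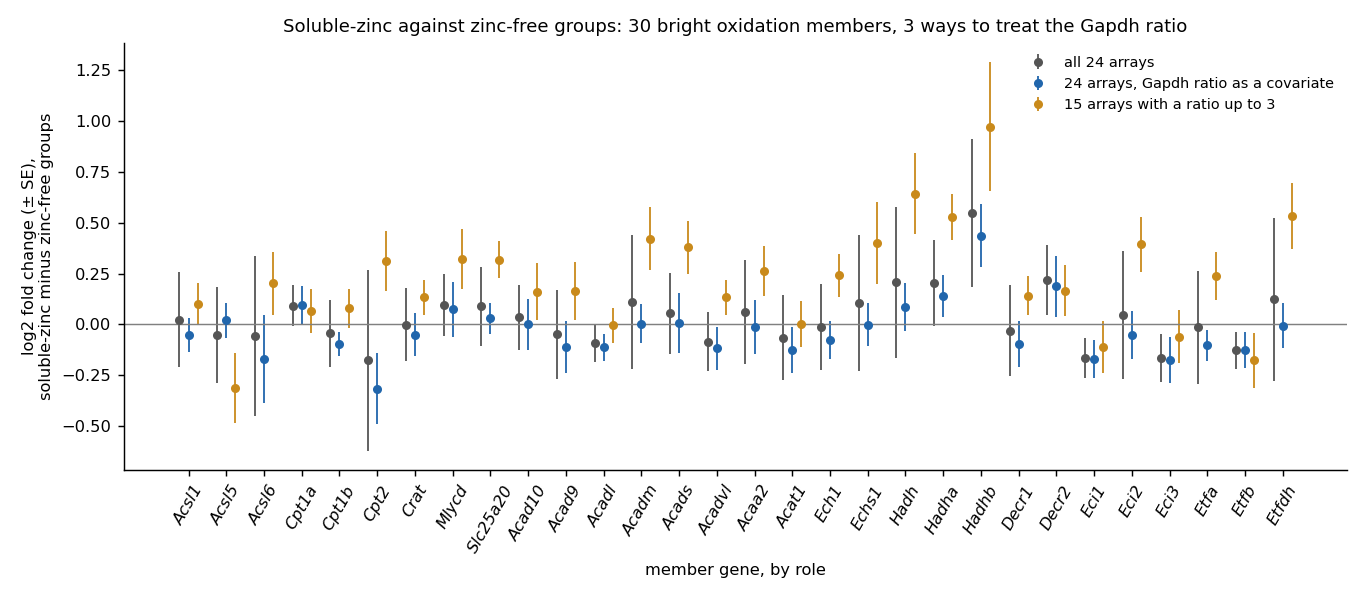
Log2 fold change of the soluble-zinc against the zinc-free groups for 30 bright members of activation, shuttle, and oxidation under 3 settings: all 24 arrays, the 15 arrays with a Gapdh ratio up to 3, and the ratio as a covariate. Vertical bars are SE. For most enzymes the point of the 15 arrays is the highest of the 3, up to 0.97 for Hadhb.

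Genes whose products work as pairs were compared over the 24 rats, 5 pairs in all, with 100000 permutations. Hadha and Hadhb had r = 0.899 and rho = 0.929 (permutation p = 1.0e-05 for each, the smallest these permutations can give, adjusted p = 2.5e-05 and 5.0e-05), and r = 0.899 without the 2 rats farthest from the median of Hadha. Within the 15 arrays up to a ratio of 3 r was 0.869, and within the 9 above it 0.278. Cpt1b and Cpt2 had r = 0.868 and rho = 0.748 (permutation adjusted p = 2.5e-05 and 7.5e-05), 0.821 without the 2 farthest rats, but 0.346 within the 15 arrays and 0.634 within the 9. Etfa and Etfb, the subunits of one dimer, had r = −0.048 and rho = −0.110 (permutation p = 0.826 and 0.606), with −0.789 within the 15 arrays and 0.572 within the 9.

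Cd36 and Fabp3 had r = −0.620 (permutation p = 0.00159, adjusted p = 0.00265) and rho = −0.306 (permutation p = 0.145). Without the 2 rats farthest from the median of Cd36, r was −0.345, and within the 15 arrays it was 0.504, whereas it was −0.719 within the 9 arrays and −0.850 with the group means removed. Lpl and Cd36 had r = −0.291 and rho = −0.249 (permutation p = 0.167 and 0.237), −0.289 without the 2 farthest rats, −0.065 within the 15 arrays, and 0.054 within the 9.

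Of 50 further genes of fatty acid metabolism and its control, 42 were measured. Against saline 0 passed with MSH, 0 with PM-HD, 2 higher with PM-LD, 1 higher and 1 lower with PM-L, and 1 higher with zinc sulfate, or 0%, 0%, 4.76%, 4.76%, and 2.38% of the 42 (3.18% to 4.25% of all probe sets). With zinc sulfate 3 were higher than with MSH (7.14%, with 5.89%). With soluble zinc 3 were higher and 0 lower (7.14%, with 3.52%), Acacb, Prkab2, and Gpam. Acacb encodes the acetyl-CoA carboxylase that makes malonyl-CoA beside the mitochondria, the substrate of malonyl-CoA decarboxylase. Its signal was 229.8, 207, 187, and 234 in saline, 101, 230.0, 169, and 212 in MSH, 139, 235, 232, and 232 in PM-HD, 270.4, 421, 387, and 474 in PM-LD, 284, 409, 321, and 309 in PM-L, and 224, 326, 346, and 322 in zinc sulfate rats. All PM-LD and all PM-L rats lay above all saline rats, and 12 of the 16 soluble-zinc rats above all 8 zinc-free rats, the exceptions being PM-HD 1, 3, and 4 and zinc sulfate 1.

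Acacb was higher with soluble zinc by 0.59 (SE 0.14, unadjusted p = 3.11e-04, adjusted p = 0.29 in limma), by 0.79 with PM-LD and 0.58 with PM-L against saline (SE 0.23), and had −0.05 with PM-HD, which did not pass. Its change per doubling of the Gapdh ratio was −0.01 (SE 0.09). Mlycd, whose product removes malonyl-CoA, did not pass with soluble zinc (0.10, SE 0.15). Prkab2, a subunit of the AMP-activated kinase that inactivates acetyl-CoA carboxylase, had 46.6, 96.9, 18.9, and 66.4 in saline, 67, 83.9, 48.4, and 48.7 in MSH, 108, 79.8, 61.2, and 47.1 in PM-HD, 136, 109, 110.3, and 111 in PM-LD, 94.8, 92.2, 44.6, and 86.4 in PM-L, and 111, 114, 76.3, and 124 in zinc sulfate rats. All PM-LD rats lay above all saline rats. It was higher by 0.98 with PM-LD and 0.85 with zinc sulfate against saline (SE 0.29), and by 0.57 (SE 0.18) with soluble zinc. Gpam, of the start of glycerolipid synthesis, was higher by 0.57 (SE 0.23) with soluble zinc. Its signal was lowest in MSH 4 (20.1) and highest in PM-LD 4 (291.5). Per doubling of the Gapdh ratio, Gpam changed by −0.28 (SE 0.14) and Prkab2 by −0.18 (SE 0.11), neither with adjusted p under 0.05 in limma. Ehhadh, a peroxisomal enzyme, was higher by 1.06 (SE 0.40) with zinc sulfate than with MSH, without overlap. It had 108, 166, 91.7, and 161 in zinc sulfate and 14.7, 57.2, 79.8, and 89.1 in MSH rats, with MSH 1 far below the rest. Ucp3, an uncoupling protein of muscle mitochondria, was lower by 0.43 (SE 0.19) with PM-L against saline. Its signal was 200, 351, 335, and 219 in PM-L and 303, 369, 311, and 525 in saline rats, with saline 4 far above the rest.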

How the data were processed

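Signal intensity on a linear scale was deposited, which the authors extracted with MAS5 after scaling each array to the same trimmed mean (500.1 to 500.2). The MAS5 version is not stated in the labels. Of 15923 probe sets, 57 controls were left out. The log2 of signal plus 16 was quantile normalized over the 24 arrays. Group means were compared with limma (version 3.58.1, R 4.3.3) in 1 fit over all arrays, with Benjamini-Hochberg adjustment across the 15866 probe sets. SE is the moderated standard error of limma. Permutation tests were two-sided, over 70 arrangements for 4 against 4 rats.

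Of the probe sets, 12783 carried 1 symbol in the platform annotation, 312 several, and 2771 none. Members with values for every rat were those called in a comparison and the central genes of each role, chosen by a rule. Dgat2, Acacb, and Prkab2 were added after their values were seen. The members, gene lists, and tests were chosen with earlier results of these data known. The script was tested on simulated data. Alternatives covered the pseudocount (1 or 64), the normalization, dim probe sets, the samples in the fit, and the replicate number as a block. Others were the Gapdh ratio, the mean of the atrial markers as a covariate, and leaving out each array. The labels name separate rats, and p measures the spread between them.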

Additional observations from a re-analysis of the deposited data

Results flagged for a closer look

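In 16 of 150 groups of 4 rats (25 genes in 6 groups), the highest or lowest rat stood apart from the other rats of its group by the critical value of Dixon's test, where chance gives about 1 in 20. These involve 6 arrays, and 15 of the 16 lie on arrays with a Gapdh ratio above 3. The exception is Acadl in MSH 3, at 18489, above the other MSH rats at 14614 to 15068.

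Zinc sulfate 3, with a ratio of 5.58, was the lowest of its group for Acadm (4235), Acsl1 (1885), Cpt2 (213), Etfa (1306), Fabp3 (15144), and Slc25a20 (868), and the highest for Cd36 (9007, with the others at 4798.5 to 5017). PM-LD 3, with a ratio of 4.64, was the lowest for Acaa2 (5034), Acadvl (3217), Acot8 (219.6), Cpt2 (494), and Slc25a20 (1182). Saline 4 was the lowest for Etfa (1823), MSH 4 for Hadha (2816), and PM-HD 3 for Fabp7 (4.8). The part of RNA integrity in these values was not tested.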

How the results depend on the processing

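The number of arrays and the signal over background limit these data, and dim genes such as Fabp7, Acot4, and Fabp12 are the least certain. The alternatives "15 arrays", "9 arrays", and both settings of the ratio together were partly chosen after seeing the data, and the 9 arrays leave 1 rat in saline, PM-LD, and zinc sulfate, assumed to vary like the other groups. Under settings other than the fit over all arrays without further terms, shares of all probe sets were computed only where given above. The other counts below are therefore not set against the array as a whole and are no result about these genes.

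The number of members called was 2 with MSH against saline over all arrays, but 1 with only saline, MSH, PM-HD, and zinc sulfate in the fit, with dim probe sets left out, or with only the 2 groups compared. For PM-HD (2) it was 1 with median centering and 0 with only the 2 groups compared (limma, unadjusted p and the limit of 25%). For PM-LD (2) it was 1 with median centering or signals as deposited. For PM-L (1) it was 2 with the mean of a gene's probe sets, with median centering, with a pseudocount of 1, or without a fold limit. For zinc sulfate (2) it was 1 with dim probe sets left out or the mean of a gene's probe sets, and 4 with median centering or signals as deposited. For the soluble-zinc groups (2) it was 1 with dim probe sets left out or a pseudocount of 64. The test over the 6 groups (1) gave 2 with the mean of a gene's probe sets, median centering, a pseudocount of 1, or signals as deposited.

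With the Gapdh ratio as a covariate the counts were 2 for PM-L, 11 for zinc sulfate against MSH (7), 4 for the soluble-zinc groups, and 7 for the 6 groups. Without the arrays above 3 they were 4 for PM-HD, 5 for PM-LD, 4 for PM-L, 4 for zinc sulfate, 19 against MSH, 13 for the soluble-zinc groups, and 6 for the 6 groups. With both they were 1 for MSH, 6 for PM-HD, 4 for PM-LD, 3 for PM-L, 3 against MSH, and 3 for the 6 groups. Within the 9 arrays above 3 the median change of the members was −0.21 for zinc sulfate against saline and −0.38 against MSH. There Cpt2 (−2.46), Etfa (−1.24), and Fabp4 (1.08) turned direction for zinc sulfate against MSH. With both settings of the ratio, Hadha (0.46) and Hadhb (0.78) turned direction for PM-HD against saline. The cause of these changes was not tested.

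Of the pairs, Hadha and Hadhb had r = 0.278 in the 9 arrays. Etfa and Etfb had 0.698 with median centering, 0.005 with group means removed, −0.789 without the 9 arrays, and 0.572 within them. Cpt1b and Cpt2 had 0.346 without the 9 arrays and 0.634 within them. Cd36 and Fabp3 had −0.032 with median centering, −0.345 without the 2 farthest rats, and 0.504 without the 9 arrays, but −0.850 with group means removed and −0.719 within the 9 arrays. Lpl and Cd36 had 0.220 with median centering, −0.576 with group means removed, and 0.054 in the 9 arrays. With median centering 4 members rose with the ratio.

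Leaving out 1 array at a time gave 1 to 2 members called with MSH, 1 to 4 with PM-HD, 0 to 3 with PM-LD, 1 to 4 with PM-L, 1 to 3 with zinc sulfate, 4 to 12 for zinc sulfate against MSH (12 without zinc sulfate 3, 4 without MSH 2), 2 to 3 for the soluble-zinc groups, and 1 to 3 for the 6 groups. The medians ran from −0.13 to −0.02, −0.23 to 0.04, −0.01 to 0.19, −0.15 to 0.04, −0.03 to 0.23, −0.0308 to 0.27, and −0.03 to 0.08 for the 7 comparisons in this order.

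The labels tie no replicate number to a shared litter, batch, or day, and the numbers were not taken to pair the rats. Of 60 pairs of arrays that share a number, 22 correlated over 0.1 (−0.26 to 0.52, median 0.056), against 36 of 180 that do not (median −0.022). Except for MSH 1, every array with a Gapdh ratio above 3 carries the number 3 or 4, so that number and ratio are not independent. The part of the ratio in these correlations was not tested. With the replicate number as a block, 3 members were called with PM-HD, and 2, 2, 1, 2, 7, 2, and 1 in the other comparisons, with the call of Acot7 for zinc sulfate against MSH lost.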
